A study of Arabidopsis thaliana with 30 samples.

Results

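Cytochrome P450 genes of Arabidopsis were followed in seedlings given hypoxia (low oxygen) and then returned to air. The members were taken by name: every probe set that the probe gene table assigns to 1 gene whose symbol is CYP, a family number of at least 2 digits and a subfamily letter. This gave 23 genes, each with 1 probe set, of 13350 genes that had a single-gene probe set and 22746 probe sets tested. By family they were 19 genes of subfamily CYP71B and 1 gene each of CYP51G (CYP51G2), CYP78A (CYP78A9), CYP79A (CYP79A2) and CYP84A (CYP84A4). Arabidopsis has many more P450 genes than these, and those that the table does not name on a probe set of their own were not analysed here. A further 2 probe sets carried a P450 symbol together with another gene (CYP71B20 with CYP71B19, and CYP79C2 with AT1G58265) and were not counted as members.

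P450 enzymes are heme monooxygenases: they split molecular oxygen with electrons passed from NADPH by a reductase, and place one of its atoms into a substrate. Plants use them in the making and breakdown of phenylpropanoids, glucosinolates, sterols, hormones, cuticle lipids and terpenes. The CYP71 family is large in Arabidopsis and many of its CYP71B genes lie side by side on the chromosomes. The best known CYP71B enzyme, the camalexin enzyme encoded by PAD3, is not among the genes measured here, and most of the others have no settled substrate.

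The plants were 7 day old whole seedlings of Col-0 that carry a single-copy 35S:His6FLAG-RPL18B transgene. All 10 groups share it: an epitope-tagged ribosomal protein under the viral 35S promoter, by which ribosomes and the mRNA on them were pulled down. Seedlings were given hypoxia or air for 2 h or 9 h from the end of the light period, or 9 h of hypoxia and then 1 h of recovery in air, and total RNA and immunopurified polysomal RNA were hybridised from 3 independent replicate experiments, which makes 30 arrays. The 35S promoter is not equally active in every cell, so polysomal RNA stands for the cells that made the tagged protein. Total array means lay between 5.754 and 5.805 on the log2 scale and polysomal ones between 4.33 and 5.37. Total RNA is therefore given on the deposited log2 scale, and comparisons that use polysomal RNA relative to the mean of the array (mean-centred). A root marker and a shoot marker were both bright in the 6 total air arrays (PYK10 at 13.2 to 13.5 and LHCB4.2 at 11.2 to 12.99), and the root hair gene EXPA7 was at 5.59 to 5.82. In such bulk RNA, fewer cells of a type and less RNA per cell cannot be told apart.

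Most members gave weak signals: 14 of 23 lay among the dimmest 40 percent of probe sets (mean over 30 arrays under 4.23), and 9 lay above. The signal of a probe set also depends on its probes, so these ranks give no order of transcript levels. The mean signal stood at percentile 81.6 for CYP71B6, the brightest, and at 1.86 for CYP71B16, the dimmest, with a median of 36.7. The other members above that limit were CYP71B5, CYP71B34, CYP71B26, CYP71B23, CYP71B29, CYP71B28, CYP84A4 and CYP71B22. In the RefSeq gene table (assembly TAIR10.1, used for names and gene order), CYP71B27 and CYP51G2 are transcribed pseudogenes. The same table places 11 members near each other on chromosome 3 (CYP71B16, CYP71B21 to CYP71B26 and CYP71B34 to CYP71B37, between AT3G26150 and AT3G26330). CYP71B5, CYP71B30P and CYP71B31 form another group on chromosome 3, and CYP71B27, CYP71B28 and CYP71B29 a group on chromosome 1. Close relatives can bind the same probes, and how far they did so was not tested.

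After 2 h of hypoxia CYP71B37 fell to the low end of the array's signals, CYP71B24 rose, and the pseudogene CYP51G2 fell by a small amount. These were 3 of 23 members called by limma (adjusted p under 0.05), 1 rise and 2 falls, where 20.7% of all probe sets were called, 8.2% as rises and 12.5% as falls. CYP71B37, the last gene of the large chromosome 3 group, gave 5.14, 4.92 and 4.88 in 2 h air and 3.84, 3.95 and 3.95 after 2 h of hypoxia. Its arrays did not overlap, the fall was −1.07 ± 0.130 (log2, SE, n = 3 arrays per group; adjusted p = 9.63e-07), and its hypoxic values lay near the 25th percentile of those arrays, 3.84. It was the only member that changed by at least 2-fold in any comparison of total RNA.

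CYP71B24, another gene of that group, gave 4.17, 4.10 and 4.05 in air and 4.78, 4.69 and 4.67 after 2 h of hypoxia. All hypoxic arrays were higher, and the rise was 0.61 ± 0.172 (adjusted p = 0.0118). CYP51G2 is a pseudogene relative of CYP51G1, the sterol 14-demethylase. It gave 3.76, 3.81 and 3.96 in air and 3.55, 3.58 and 3.66 under hypoxia, a fall of −0.25 ± 0.0800 (adjusted p = 0.026). This call ended when air replicate 3 (−0.19), hypoxia replicate 1 (−0.23) or hypoxia replicate 2 (−0.24) was left out and when array medians were subtracted (−0.19). It also ended in a fit to the compared groups alone (−0.25, limma adjusted p = 0.0994). All 3 called genes were among the 14 dim members, a share of 21.4% where 6.43% of dim probe sets were called. Of the 9 brighter members none was called by limma (0 also at an unadjusted p under 0.05), where 30.2% of brighter probe sets were. The median change of the 23 was −0.00, and that of all probe sets −0.01. Arrays did not overlap in 6 of 23 members, the 3 called ones among them, where 34.2% of all probe sets showed no overlap.

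After 9 h of hypoxia 4 members fell and 3 rose. All 4 that fell belong to CYP71B, 3 of them to the large chromosome 3 group, and the rises were in CYP78A9, CYP71B6 and CYP51G2. Falls made up 21.1% of the 19 CYP71B members and 27.3% of the 11 genes of that group, shares near that of all probe sets. The 7 of 23 called stood beside 45.8% of all probe sets called, 21.3% as rises and 24.5% as falls. The members' share was 30.4%, and a difference between these shares was not tested. Arrays did not overlap in 9 members, where 54.5% of all probe sets showed no overlap. The median change of the members was 0.03, as was that of all probe sets. Among brighter members 4 of 9 were called where 63.2% of brighter probe sets were, and among dim members 3 of 14 where 19.6% of dim ones were.

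**Figure D1:**
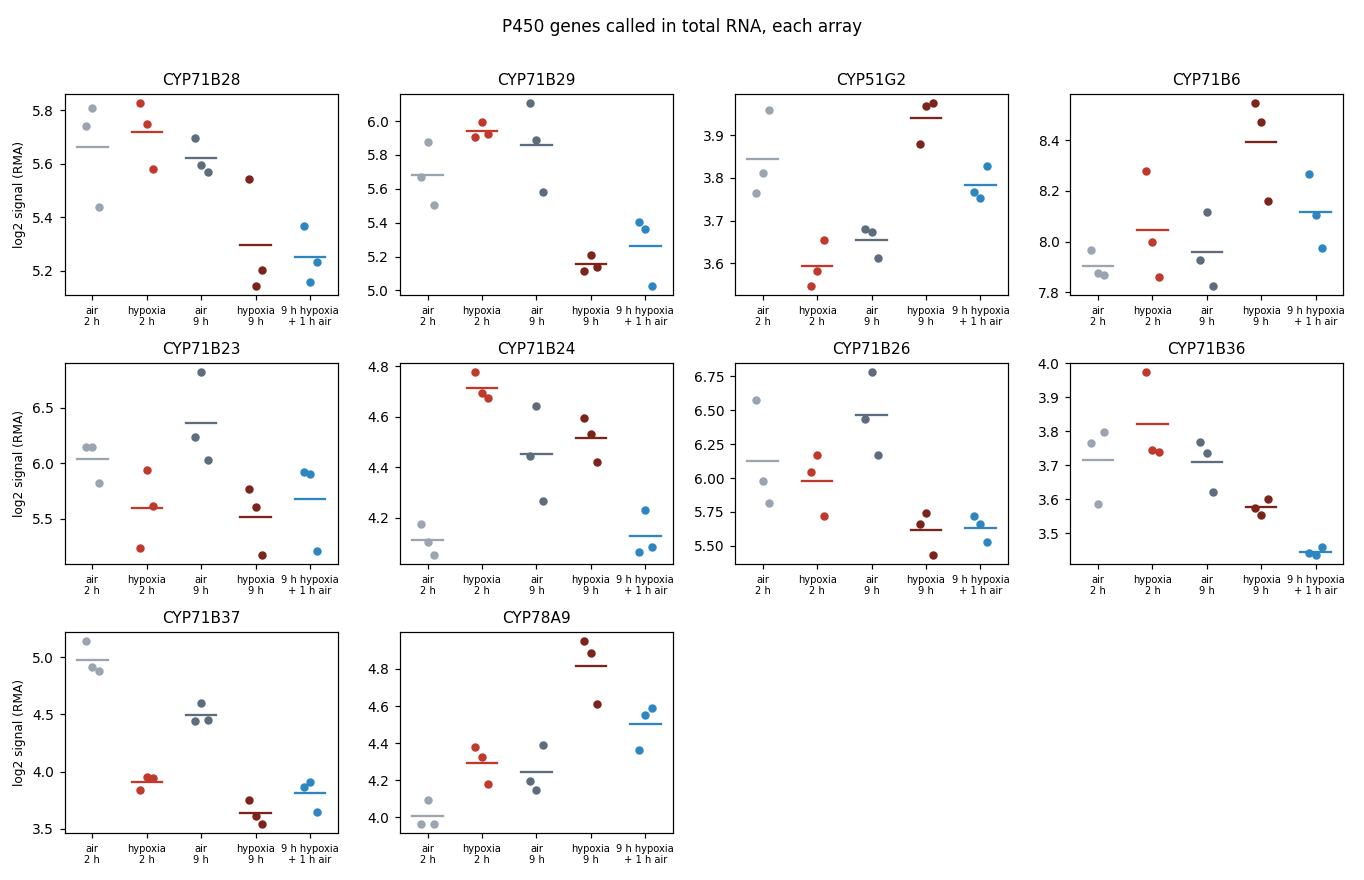
Signal of the 10 P450 genes called in a total RNA comparison of hypoxia or recovery, on the deposited log2 scale (vertical axis, its own range for each gene), in the 5 conditions. Each point is 1 array (n = 3 per condition) and the bar is the group mean; CYP71B37 was lower in all hypoxic and recovery arrays than in any air array, and CYP78A9 was highest after 9 h of hypoxia.

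CYP71B37 was low again at 9 h, with 4.44, 4.60 and 4.46 in air and 3.75, 3.61 and 3.54 under hypoxia (−0.87 ± 0.130, adjusted p = 3.69e-06). CYP71B26 gave 6.44, 6.78 and 6.17 in air and 5.66, 5.75 and 5.43 under hypoxia (−0.85 ± 0.167, adjusted p = 0.000129). CYP71B23 gave 6.24, 6.82 and 6.03 in air and 5.77, 5.60 and 5.18 under hypoxia (−0.85 ± 0.219, adjusted p = 0.00222). In each of these neighbours the groups were apart, and replicate 2 was the highest of the 3 air arrays. CYP71B29, of the chromosome 1 group, gave 6.11, 5.89 and 5.58 in air and 5.12, 5.21 and 5.14 under hypoxia (−0.70 ± 0.179, adjusted p = 0.00199). Its hypoxic arrays lay close together and below every air array.

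CYP78A9, whose enzyme promotes the growth of floral organs and fruit, rose most. Its values were 4.196, 4.15 and 4.39 in 9 h air and 4.95, 4.88 and 4.61 after 9 h of hypoxia, without overlap (0.57 ± 0.140, adjusted p = 0.00143). CYP71B6, an enzyme that can oxidise indole-3-acetonitrile, gave 7.93, 8.12 and 7.83 in air and 8.55, 8.47 and 8.16 under hypoxia (0.44 ± 0.125, adjusted p = 0.0053). The lowest hypoxic array of CYP71B6 was only just above the highest air array. CYP51G2, which fell at 2 h, rose here from 3.68, 3.67 and 3.61 to 3.88, 3.97 and 3.98 (0.29 ± 0.0800, adjusted p = 0.00443).

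The other 8 genes of the large chromosome 3 group did not pass at 9 h. Their changes ran from −0.21 in CYP71B22 to 0.35 in CYP71B35, so genes that fell by about 0.85 stood beside genes with values near 0. In the chromosome 1 group CYP71B27 was at 0.25 (adjusted p = 0.0954) and CYP71B28 at −0.32 (adjusted p = 0.0737) beside the fall of CYP71B29. CYP71B28 passed as a fall without hypoxia replicate 1 (−0.45). CYP71B5, CYP71B30P and CYP71B31 were at 0.02, 0.13 and 0.08, and none of the 3 was called in any total RNA comparison on the deposited scale. Subtracting array medians moved the median of all probe sets to 0.19. On that scale 11 members were called at 9 h, 7 as rises and 4 as falls. The added rises were CYP71B27, CYP71B35, CYP71B30P and CYP71B31. Of all 22746 probe sets 8994 rose and 4385 fell there.

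**Figure D2:**
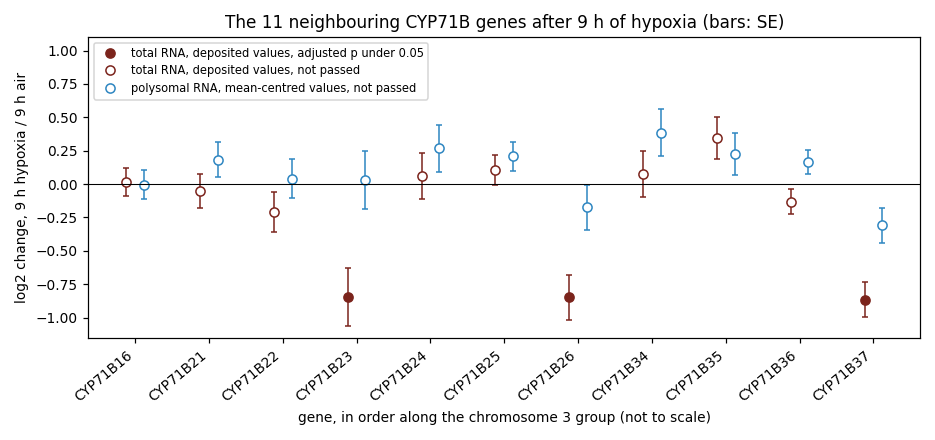
log2 change after 9 h of hypoxia against 9 h of air (vertical axis) in the 11 neighbouring CYP71B genes of chromosome 3, in their order along the chromosome and not to scale (horizontal axis). Points are limma estimates with 1 SE, in total RNA (deposited values, filled where adjusted p was under 0.05) and polysomal RNA (mean-centred); CYP71B23, CYP71B26 and CYP71B37 fell in total RNA while their neighbours stayed between −0.21 and 0.35.

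The effect at 9 h was also tested against that at 2 h, over 4 groups of 3 arrays. Of the 23 members 3 differed, 1 upwards and 2 downwards, where 18.2% of all probe sets were called, 8.12% upwards and 10.1% downwards. CYP71B29 was at 0.26 at 2 h, which did not pass, and at −0.70 at 9 h, a difference of −0.96 ± 0.254 (adjusted p = 0.0079). CYP51G2 went from a fall, whose call ended in 3 of 6 fits without 1 array, to a rise. The difference was 0.54 ± 0.113 (adjusted p = 0.00124). CYP71B26 was at −0.15 and then at −0.85, a difference of −0.70 ± 0.236 (adjusted p = 0.0377). The call on CYP71B26 ended in 8 of the 12 fits that left out 1 array, among them those without 9 h air replicate 2 (−0.54) and 2 h air replicate 3 (−0.55). It also ended with array medians subtracted (−0.60), with quantile normalization (−0.61) and in a fit to the compared groups alone (−0.70, adjusted p = 0.111).

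In air alone CYP71B37 was the 1 member that differed between the sampling times. Between 2 h and 9 h of air 1 of 23 members was called, where 7.06% of all probe sets were, 2.81% as rises and 4.24% as falls, and arrays did not overlap in 4, where 23% of all probe sets showed no overlap. It changed by −0.48 ± 0.130 at 9 h (adjusted p = 0.0192), with no overlap between the arrays given above. The call ended without 2 h air replicate 1 (−0.40), without 9 h air replicate 1 (−0.45) or 3 (−0.46), and after quantile normalization (−0.41).

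One hour of recovery in air moved none of the 23 members past the threshold in total RNA. Against 9 h of hypoxia 0 of 23 were called by limma, where 22.2% of all probe sets were, 12.5% as rises and 9.65% as falls; 4 members had an unadjusted p under 0.05. The changes ran from −0.39 in CYP71B24 to 0.18 in CYP71B37, with a median of −0.09 against −0.04 over all probe sets. CYP71B27, CYP51G2, CYP71B24, CYP71B36 and CYP78A9 had arrays that did not overlap, all lower after recovery, which is 5 of 23 members where 40% of all probe sets showed no overlap. With array medians subtracted 7 members fell, on a scale where the median of all probe sets was −0.15 and 4516 of 22746 fell. A fit to the compared groups alone called 2 members (CYP71B27 and CYP71B24). The calls with recovery thus differed between scales.

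Compared with 9 h of air, recovered seedlings had lower values in 6 of 23 members and higher ones in 0, where 38.8% of all probe sets were called, 18.2% as rises and 20.6% as falls. This comparison has its air arrays in common with that of 9 h of hypoxia, and the values are given side by side. CYP71B26 gave 5.72, 5.66 and 5.53 after recovery, and stood at −0.83 against air (−0.85 before recovery). CYP71B37 gave 3.87, 3.91 and 3.65, and stood at −0.69 (−0.87 before). CYP71B23 gave 5.92, 5.91 and 5.21 and stood at −0.69 (−0.85 before), and CYP71B29 gave 5.40, 5.36 and 5.03 and stood at −0.59 (−0.70 before).

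CYP71B28 and CYP71B36 were also below air, at −0.37 ± 0.146 (adjusted p = 0.0474) and −0.26 ± 0.0925 (adjusted p = 0.0247). CYP71B36 gave 3.44, 3.44 and 3.46 after recovery against 3.77, 3.74 and 3.62 in 9 h air. These were low signals, where the 10th and 25th percentiles were 3.43 and 3.86 in the recovery arrays and 3.42 and 3.86 in 9 h air. The calls on CYP71B26 (adjusted p = 0.000211) and CYP71B37 (adjusted p = 9.34e-05) held in each fit that left out 1 array. The other 4 did not. The call on CYP71B28 ended in 5 of 6 such fits (−0.39 to −0.32), with array medians subtracted (−0.32) and with quantile normalization (−0.32), and that on CYP71B36 in 4 of 6 (−0.26 to −0.23) and with array medians subtracted (−0.21). CYP71B29 was lost without air replicate 1 (−0.47) or recovery replicate 3 (−0.48), and CYP71B23 without air replicate 2 (−0.46) or recovery replicate 3 (−0.45). The median of the 23 members against air was −0.11, and that of all probe sets −0.01. Arrays did not overlap in 9 members, where 49.9% of all probe sets showed no overlap.

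In polysomal RNA no member was called as a fall under hypoxia in the mean-centred fit without a replicate block. On the deposited values the median of all probe sets was −0.85 at 2 h and −0.97 at 9 h. There 19 members fell at 2 h and 20 at 9 h and none rose. Of all 22746 probe sets 20042 fell at 2 h and 20209 at 9 h. All signs in the paragraphs on polysomal RNA are therefore relative to the mean of all probe sets on an array. At 2 h 4 of 23 members rose, where 33.3% of all probe sets were called, 15.7% as rises and 17.6% as falls. Arrays did not overlap in 7 members, where 41.6% of all probe sets showed no overlap. CYP71B29 gave −0.14, −0.10 and −0.33 in air and 1.21, 0.22 and 0.76 after 2 h of hypoxia (0.92 ± 0.182, adjusted p = 0.000246). The groups were apart, and the hypoxic arrays were spread over about 1 log2 unit.

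CYP71B24 gave −1.54, −1.64 and −1.66 in air and −0.35, −1.21 and −0.56 after 2 h of hypoxia (0.91 ± 0.174, adjusted p = 0.000172). It was the 1 member that rose at 2 h in both RNA pools. CYP71B6 gave 1.43, 1.40 and 1.21 in air and 2.12, 1.97 and 2.11 under hypoxia (0.72 ± 0.124, adjusted p = 4.39e-05). CYP71B36 gave −2.20, −2.29 and −2.12 in air and −1.85, −1.84 and −1.76 under hypoxia (0.39 ± 0.0914, adjusted p = 0.00139). For CYP71B6 and CYP71B36 the hypoxic arrays were tight and all above air, though CYP71B36 was dim, with its mean signal at percentile 16.3. On the deposited values these changes were 0.09 for CYP71B29, 0.08 for CYP71B24, −0.10 for CYP71B6 and −0.44 for CYP71B36.

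At 9 h 4 of 23 members rose in polysomal RNA, where 47.9% of all probe sets were called, 22.6% as rises and 25.3% as falls. Arrays did not overlap in 7 members, where 52.7% of all probe sets showed no overlap. CYP71B6 rose from 1.18, 1.51 and 1.19 to 2.26, 2.24 and 2.14 (0.92 ± 0.124, adjusted p = 6.16e-07). CYP71B5 rose from 0.50, 0.36 and 0.68 to 1.17, 1.68 and 1.01 (0.78 ± 0.194, adjusted p = 0.00159), beside a total RNA change of 0.02. The difference between its polysomal and total changes, both mean-centred, was 0.74 and did not pass (limma adjusted p = 0.0503). CYP78A9 rose from −1.48, −1.18 and −1.55 to −0.52, −0.97 and −0.51 (0.73 ± 0.141, adjusted p = 9.06e-05). CYP71B6 and CYP78A9 rose at 9 h in both RNA pools.

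CYP79A2 makes phenylacetaldoxime from phenylalanine, a first step towards benzylglucosinolate. It gave −2.12, −2.27 and −2.30 in 9 h air and −1.88, −1.79 and −2.09 after 9 h of hypoxia (0.31 ± 0.118, adjusted p = 0.0317). The arrays were just apart, and the call ended in 4 of the 6 fits that left out 1 array (0.24 to 0.29), with quantile normalization (0.22) and in a fit to the compared groups alone (0.31). With replicate numbers as a block, CYP71B34 (0.39, adjusted p = 0.00633) and CYP71B37 (−0.31, adjusted p = 0.0494) were called as well, which makes 6. Quantile normalization also called CYP71B37 as a fall (−0.39, adjusted p = 0.0161). On the deposited values the changes were −0.10 for CYP71B6, −0.24 for CYP71B5, −0.28 for CYP78A9 and −0.71 for CYP79A2.

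**Figure D3:**
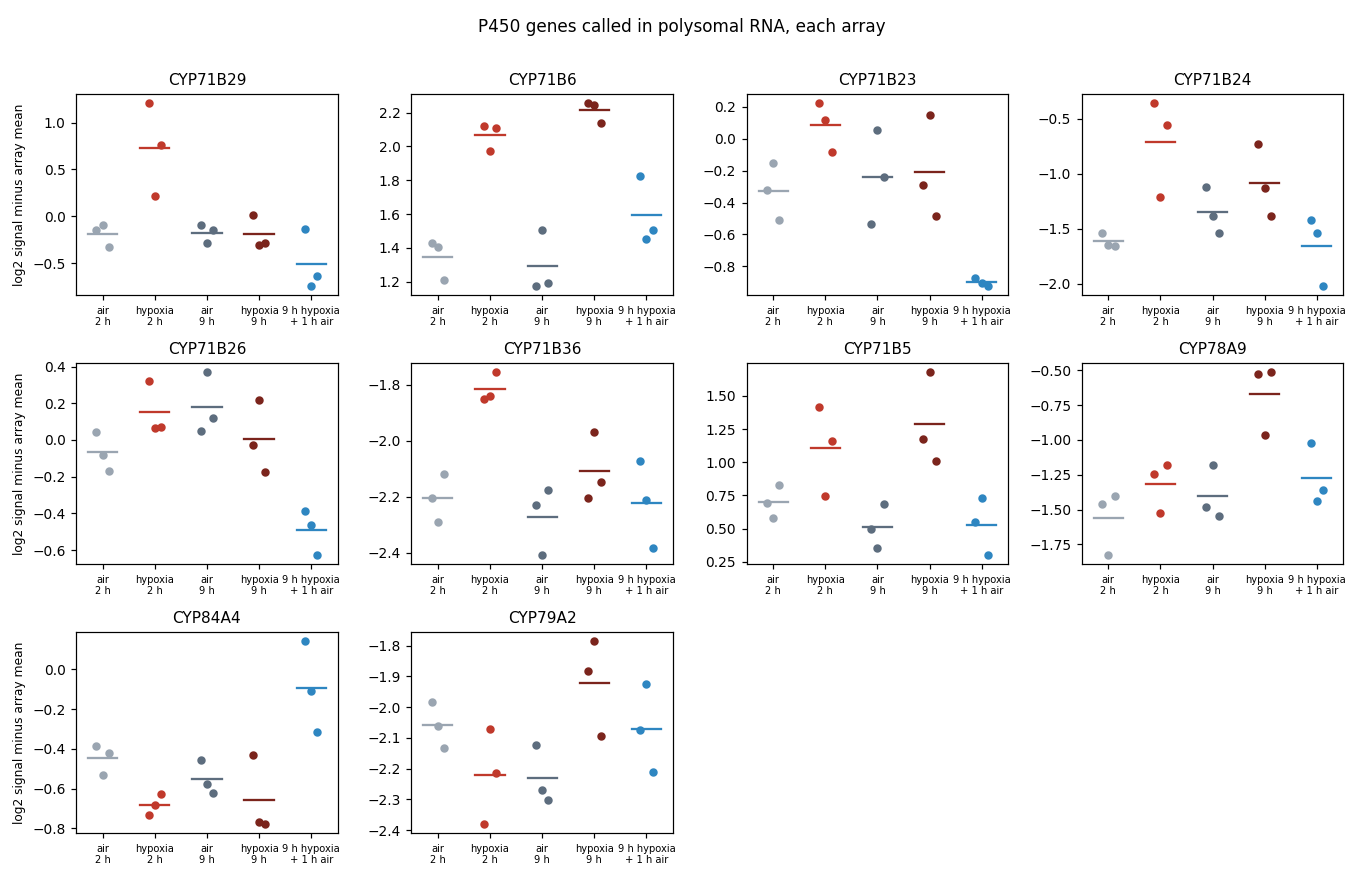
Mean-centred log2 signal (vertical axis, its own range for each gene) of the 10 P450 genes called in a polysomal comparison of hypoxia or recovery, in the 5 conditions. Each point is 1 array (n = 3 per condition) and the bar is the group mean; CYP71B6 was higher in all hypoxic arrays than in any air array, and CYP84A4 was highest after recovery.

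After recovery the polysomal values of 6 members fell and that of 1 rose relative to 9 h of hypoxia, where 37% of all probe sets were called, 18.9% as rises and 18.1% as falls. Arrays did not overlap in 8 members, where 42.6% of all probe sets showed no overlap. On the deposited values, with a median of all probe sets of 0.81, 18 members rose and none fell. Of all 22746 probe sets 19954 rose there. CYP71B5 went to 0.55, 0.73 and 0.30 (−0.76 ± 0.194, adjusted p = 0.00259), CYP71B6 to 1.82, 1.45 and 1.505 (−0.62 ± 0.124, adjusted p = 0.00022) and CYP78A9 to −1.02, −1.44 and −1.36 (−0.60 ± 0.141, adjusted p = 0.00113). Each of these 3 had risen by 9 h of hypoxia, in a comparison that has the hypoxic arrays in common with this one. All their recovery arrays lay below all their hypoxic arrays.

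CYP71B23 went from −0.29, 0.15 and −0.48 to −0.87, −0.90 and −0.92 (−0.69 ± 0.217, adjusted p = 0.0129). CYP71B24 fell by −0.58 ± 0.174 (adjusted p = 0.0102) and CYP71B26 by −0.50 ± 0.166 (adjusted p = 0.0191). These 3 neighbours on chromosome 3 were low in all recovery arrays, but their calls ended without single arrays. Without hypoxia replicate 2 CYP71B23 was at −0.51 and CYP71B26 at −0.39, and CYP71B24 was at −0.40 without hypoxia replicate 1. Without recovery replicate 3 CYP71B24 was at −0.39 and CYP71B26 at −0.43. The call on CYP71B24 also ended in a fit to the compared groups alone (−0.58, limma adjusted p = 0.0578).

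CYP84A4, an enzyme of arabidopyrone synthesis and a relative of the lignin enzyme ferulate 5-hydroxylase, was the 1 member that rose. It gave −0.45, −0.58 and −0.62 in 9 h air, −0.43, −0.77 and −0.78 after 9 h of hypoxia and 0.14, −0.11 and −0.31 after recovery (0.57 ± 0.130, adjusted p = 0.000987). The recovery arrays were the highest of these 9 arrays. In total RNA CYP84A4 was not called in any comparison, and its change with recovery was 0.09. The difference between its polysomal and total changes with recovery, both mean-centred, was 0.49 and did not pass (limma adjusted p = 0.0577).

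**Figure D4:**
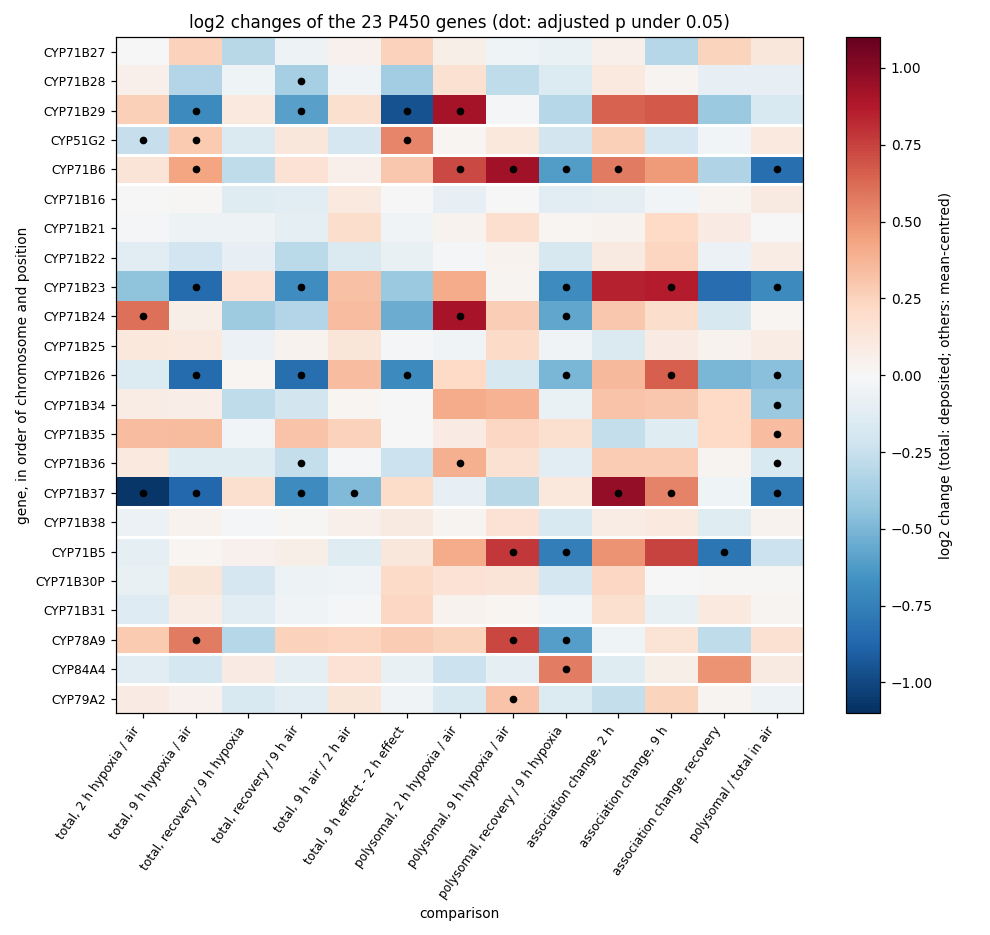
log2 change (colour, from blue for lower to red for higher) of the 23 P450 genes, in chromosome order (vertical axis), in 13 comparisons (horizontal axis). A dot marks an adjusted p under 0.05; total RNA columns use deposited values and the others mean-centred values, and 8 rows have no dot.

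The polysomal change was then tested against the total change of the same condition, here called the association change. At 2 h 2 of 23 members were called, both upwards, where 15% of all probe sets were called, 7.38% upwards and 7.62% downwards. CYP71B37 had an association change of 0.97 ± 0.185 (adjusted p = 0.000742), made of a mean-centred group mean that went from −0.81 to −1.87 in total RNA and from −1.78 to −1.87 in polysomal RNA. Its polysomal signal was already low in 2 h air, with deposited values of 3.48, 3.39 and 3.88 where the 25th percentile of those arrays was 3.47, and after hypoxia it was 2.79, 2.49 and 2.71 where that percentile was 2.63. CYP71B6 had an association change of 0.57 ± 0.175 (adjusted p = 0.0272), a call that ended in 6 of the 12 fits without 1 array (0.48 to 0.55).

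At 9 h 3 of 23 members were called, all upwards, where 24.2% of all probe sets were called, 11.5% upwards and 12.7% downwards: CYP71B23 (0.87 ± 0.308, adjusted p = 0.0408), CYP71B26 (0.66 ± 0.235, adjusted p = 0.041) and CYP71B37 (0.54 ± 0.185, adjusted p = 0.0326). The calls ended in 7, 8 and 7 of the 12 fits without 1 array, in that order. All 3 had fallen in total RNA, while their polysomal changes were 0.03, −0.17 and −0.31 and did not pass. Without total 9 h air replicate 2 none of the 23 was called by limma (CYP71B23 at 0.64, CYP71B26 at 0.50, CYP71B37 at 0.49), and without replicate 3 of that group 6 were. For recovery 1 of 23 was called, where 22% of all probe sets were, 11.2% upwards and 10.8% downwards: CYP71B5, at −0.79 ± 0.275 (adjusted p = 0.0388), a call that ended in 7 of 12 such fits (−0.81 to −0.58). On the deposited values, 16 members at 2 h and 19 at 9 h were called downwards, and 19 upwards with recovery. Of all 22746 probe sets 18857 and 19798 were called downwards there at 2 h and 9 h, and 18529 upwards with recovery.

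In air, 6 of 23 members had lower polysomal than total signal and 1 had higher, where 50.5% of all probe sets were called, 26.6% as higher and 23.9% as lower. CYP71B6 (−0.83 ± 0.0876, adjusted p = 9.69e-09), CYP71B37 (−0.78 ± 0.0926, adjusted p = 7.62e-08) and CYP71B23 (−0.70 ± 0.154, adjusted p = 0.000376) were lowest. CYP71B26 was at −0.46, CYP71B34 at −0.41 and CYP71B36 at −0.17, and CYP71B35 was at 0.34 ± 0.111 (adjusted p = 0.0136). All but CYP71B6 belong to the large chromosome 3 group, where 6 of 11 genes or 54.5% were called, a share near that of all probe sets. On the deposited values CYP71B35 was at −0.08, and 22 members were lower, as were 16507 of 22746 probe sets. The call on CYP71B36 ended in 6 of the 12 fits without 1 array.

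Of the 23 members, 13 were called in none of the 4 total RNA comparisons of hypoxia or recovery, where 42.1% of all probe sets were called in none of these 4. A further count over all 13 comparisons left 8 members with no call in any, where 21.1% of all probe sets had none. These 8 were CYP71B16, CYP71B21, CYP71B22, CYP71B25, CYP71B27, CYP71B30P, CYP71B31 and CYP71B38. CYP71B31 is known as a linalool-oxidising enzyme of flowers. Their changes over all 13 comparisons lay between −0.31 and 0.25, both in CYP71B27, and all but CYP71B22 were among the dim members.

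Role groups written from general knowledge held 75 P450 genes, of which 3 were measured: CYP84A4 among 7 of phenylpropanoid and flavonoid synthesis, CYP79A2 among 16 of glucosinolate, camalexin and indole metabolism, and CYP78A9 among 14 listed with fatty acids, cutin, suberin and wax, where the CYP78A substrate is not settled. None was measured of those for brassinosteroids and sterols, gibberellin and cytokinin, abscisic acid breakdown, oxylipins, or carotenoids and triterpenes. Of 81 other genes of these pathways 7 were measured, with 0 of 8 redox partners such as the P450 reductases among them.

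Among those 7 partners, 4 fell and 0 rose in total RNA at 9 h, where 24.5% of all probe sets fell and 21.3% rose. HCT, a shikimate hydroxycinnamoyltransferase that feeds the lignin P450 enzymes, had a lowest, middle and highest value of 9.34, 9.46 and 9.63 in 9 h air and of 7.59, 7.95 and 8.09 under hypoxia (−1.60 ± 0.162, adjusted p = 6.56e-09). BCAT4, a methionine aminotransferase of glucosinolate chain elongation, gave 8.91, 8.93 and 9.03 in air and 7.39, 7.56 and 7.75 under hypoxia (−1.39 ± 0.168, adjusted p = 1.38e-07). In both genes the groups were apart, and the changes were larger than that of any P450 member at 9 h. UGT74B1, the glucosyltransferase of the glucosinolate core, fell by 1.23 and the glucosyltransferase gene AT2G31790 fell by 0.40.

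At 2 h HCT was the only 1 of the 7 called in total RNA (−0.63), where 20.7% of all probe sets were called, 12.5% as falls. With recovery HCT rose by 0.67 and UGT74B1 by 1.55 against 9 h of hypoxia, where 22.2% of all probe sets were called. Against 9 h air HCT was still at −0.93, BCAT4 at −1.51 and AT2G31790 at −0.50, where 38.8% were called. UGT74B1 was at 0.32 there and was not called. In mean-centred polysomal RNA HCT was at −0.50 and BCAT4 at 0.82 at 2 h, where 33.3% of all probe sets were called. At 9 h HCT was at −1.76 and AT2G31790 at −0.44, and the glutathione transferase gene GSTU20 rose by 0.43, where 47.9% were called. With recovery HCT was at 0.69, BCAT4 at −1.18 and GSTU20 at −0.38, where 37% were called. On the deposited values the polysomal mean of GSTU20 went from 10.96 to 10.38 at 9 h and to 10.85 with recovery. That of BCAT4 at 2 h was 8.51 in air and under hypoxia. The mean-centred association change of BCAT4 was 1.26 at 2 h, 1.38 at 9 h and −1.05 with recovery. That of UGT74B1 was 0.87, 0.90 and −1.02, where 15%, 24.2% and 22% of all probe sets were called. On the deposited values UGT74B1 means at 9 h went from 7.51 to 6.28 in total RNA and from 6.98 to 5.64 in polysomal RNA. Those of BCAT4 went from 8.96 to 7.57 and from 8.88 to 7.87. DFR (dihydroflavonol reductase) and LYC (lycopene cyclase) were not called in any comparison.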

How the data were processed

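The values are the authors' deposited log2 signals of 30 arrays, which per the submitters' processing notes came from RMA. Neither its version nor the set of arrays normalized at once was given in the sources used here. All 22746 probe sets that are no controls (22810 less 64) entered the tests, with no filter on low signals. Members, lists and tests were chosen with earlier results of these data known.

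limma (version 3.58.1, R 4.3.3) was fitted to all 30 arrays with 1 mean for each of 10 groups, which left 20 residual degrees of freedom. P-values were adjusted by Benjamini-Hochberg in each of 13 comparisons over all those probe sets, and called at 0.05. Comparisons with polysomal arrays used values minus each array's mean over non-control probe sets. limma was tested on simulated data for the total RNA comparison at 2 h only, with noise independent between arrays. SE are those of the model.

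Named with full values were, in each total RNA comparison of hypoxia or recovery, up to 5 rises and 5 falls that passed without overlap of arrays, and in the others up to 3 of each. Members of the role groups and up to 4 passing members of each partner list were named too. Same-numbered arrays deviated together (every correlation over 0.1) in total RNA at 2 h, for both recovery comparisons and between the air controls, and in polysomal RNA at 9 h (0.106 to 0.18) and with recovery (0.237 to 0.269). This pairing comes from the data, and the labels only number the independent replicate experiments. Alternatives were other scalings, a filter on the dimmest 40 percent of probe sets, a fit to the compared groups alone, a replicate block and leaving out each array. The number of arrays limits the precision.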

Additional observations from a re-analysis of the deposited data

Results flagged for a closer look

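Differences between effects that passed a test of the difference itself are collected here, with no cause tested. The effect of 9 h minus that of 2 h in total RNA was −0.96 in CYP71B29, −0.70 in CYP71B26 and 0.54 in CYP51G2, where 18.2% of all probe sets were called, and the call on CYP71B26 ended in 8 of 12 fits without 1 array. The polysomal change minus the total change was 0.57 in CYP71B6 and 0.97 in CYP71B37 at 2 h. At that time 15% of all probe sets were called. On the deposited values these differences were −0.25 and 0.15, and the call on CYP71B6 ended in 6 of 12 fits without 1 array. At 9 h this difference was 0.87 in CYP71B23, 0.66 in CYP71B26 and 0.54 in CYP71B37, where 24.2% of all probe sets were called. With recovery it was −0.79 in CYP71B5, where 22% were called. The calls at 9 h and with recovery ended in 7, 8, 7 and 7 of 12 such fits, in that order. On the deposited values they were −0.14, −0.34, −0.46 and 0.0498. Single arrays of these groups of 3 were not tested as outliers.

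One probe set outside the counted members, shared by CYP71B20 and CYP71B19, rose under hypoxia by more than any of the 23 members. It was singled out after its values were seen. In total RNA its lowest, middle and highest values were 6.36, 6.38 and 6.44 in 9 h air and 7.30, 7.42 and 7.72 after 9 h of hypoxia (1.09 ± 0.221, limma adjusted p = 0.000195). All hypoxic arrays were above all air arrays. In mean-centred polysomal RNA the change was 1.84 ± 0.221 at 9 h (limma adjusted p = 1.08e-07). On the deposited scale the arrays gave 5.60, 5.62 and 5.69 in air and 6.29, 6.54 and 6.54 under hypoxia. Which of the pair of genes gave the signal cannot be told apart.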

How the results depend on the processing

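Of 48 member calls, 31 held in every fit that left out 1 array and 17 ended in at least 1. Counts of called members without 1 array ran from 2 to 3 for total RNA at 2 h, 7 to 9 at 9 h, 0 to 1 for recovery against hypoxia, 3 to 5 for recovery against air, 0 to 1 for the air controls and 2 to 3 for the 9 h minus 2 h effect. In polysomal RNA they ran from 4 to 6 at 2 h, 3 to 5 at 9 h and 5 to 8 with recovery. For the association change they ran from 1 to 3 at 2 h, 0 to 6 at 9 h and 0 to 3 with recovery, and for polysomal against total RNA in air from 6 to 8. On the deposited values the polysomal counts were 19 at 2 h, 20 at 9 h and 18 with recovery. The association counts there were 16, 19 and 19, with 22 in air, beside the counts of all probe sets given above. There 18 member calls turned direction, since the arrays' means differ: at 2 h CYP71B6 (−0.10) and CYP71B36 (−0.44); at 9 h CYP71B6 (−0.10), CYP71B5 (−0.24), CYP78A9 (−0.28) and CYP79A2 (−0.71). With recovery they were CYP71B6 (0.24), CYP71B23 (0.16), CYP71B24 (0.28), CYP71B26 (0.36), CYP71B5 (0.0935) and CYP78A9 (0.25). In the association change they were CYP71B6 at 2 h (−0.25), CYP71B23 (−0.14), CYP71B26 (−0.34) and CYP71B37 (−0.46) at 9 h and CYP71B5 with recovery (0.0498), and in air CYP71B35 (−0.0841). With array medians subtracted 11 were called in total RNA at 9 h, 7 for recovery against hypoxia, 8 in polysomal RNA at 9 h, and 1 and 2 for the association at 9 h and recovery. With the dimmest 40 percent left out only 9 members were tested; 0 were called in total RNA at 2 h, 4 at 9 h and 0 between air controls, 2 in polysomal RNA at 2 h and at 9 h, 5 and 3 for the association at 9 h and recovery, and 4 in air. Quantile normalization gave 0 between air controls, where 756 of all probe sets rose and 883 fell. It gave 2 for the association with recovery, where 2578 rose and 2428 fell. A fit to the compared groups alone gave 2 for recovery against hypoxia and 0 for the association with recovery (limma; 4 members at an unadjusted p under 0.05 on all arrays). With a replicate block the association counts were 4 at 2 h, 6 at 9 h and 4 with recovery, and the block ended none of the 48 calls. It added CYP71B28 in total RNA at 9 h (−0.32, limma adjusted p = 0.0362). In polysomal RNA at 2 h the block added CYP71B34 (0.40, limma adjusted p = 0.00622). There same-numbered arrays correlated at 0.0306 to 0.28 (total, 9 h) and 0.0165 to 0.176 (polysomal, 2 h). Not all of these were over 0.1, so pairing was neither shown nor excluded. The causes of the other shifts were not tested.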

Other observations

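The probe set shared by CYP71B20 and CYP71B19 also rose at 2 h, by 0.62 ± 0.221 in total RNA (limma adjusted p = 0.0459) and by 1.54 ± 0.221 in mean-centred polysomal RNA (limma adjusted p = 4.32e-06). With recovery it fell against 9 h of hypoxia, by −0.63 in total and −1.67 in polysomal RNA. Its mean-centred association change was 0.91 at 2 h (limma adjusted p = 0.0498) and −1.03 with recovery. Of all probe sets 15% and 22% were called there. At 9 h its association change was 0.74 and was not called (limma adjusted p = 0.0919). Its deposited polysomal values in 2 h air ran from 4.94 to 5.92. Its polysomal signal in air lay below the total one by −0.58. On the deposited values its means went from 6.70 to 7.32 in total and from 5.46 to 6.18 in polysomal RNA at 2 h. With recovery they went from 7.48 to 6.85 and from 6.46 to 5.64. CYP718, whose symbol has no subfamily letter, fell in total RNA at 9 h (−0.43, limma adjusted p = 0.039). Its mean-centred association change at 9 h was 0.75 (limma adjusted p = 0.0249). Of all probe sets 45.8% and 24.2% were called in these comparisons. Its mean-centred polysomal change was 0.33, with overlap of arrays, and was not called (limma adjusted p = 0.121). The deposited polysomal values after 9 h of hypoxia were uneven, at 2.85, 2.94 and 3.85. On the deposited values its polysomal mean went from 3.90 to 3.21, a larger fall than in total RNA.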
